A study of Caenorhabditis elegans with 54 samples.

Results

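The genes described here make fatty acids and put double bonds into them: the 7 desaturase genes fat-1 to fat-7, the fatty acid synthase gene fasn-1, the acetyl-CoA carboxylase gene pod-2, and sbp-1, which encodes the worm SREBP (sterol regulatory element binding protein), a transcription factor that drives lipid synthesis genes. They were taken by gene symbol from the table of counts, where all 10 were found among 19909 genes. The animals were whole Caenorhabditis elegans of the daf-2(e1370) strain, and every group carried this mutation. It impairs the worm insulin receptor, so that larvae kept at a raised temperature arrest as dauers. RNA was sequenced in 54 libraries, 3 for each of 18 conditions: dauers on day 1, 4, 15 or 30 of arrest (called D1, D4, D15 and D30), each sampled 0, 6 and 24 h into exit, L3 larvae as a reference, and 5 conditions with UV on dauer day 1. The UV conditions were D4 at all 3 times and D1 at the 2 later ones. Exit was induced by moving the animals to fresh food and to a lower temperature together, so the effects of food and of temperature cannot be told apart in any exit comparison. The study describes the 3 libraries of a condition as biological replicates, and a change of level in these whole animals can come from fewer cells of a type or from less RNA per cell, which cannot be told apart either.

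Saturated fatty acids are built from acetyl-CoA, which acetyl-CoA carboxylase (POD-2) turns into malonyl-CoA and fatty acid synthase (FASN-1) assembles into palmitic acid. The delta-9 desaturases then place the first double bond: FAT-5 acts mainly on palmitic acid, and FAT-6 and FAT-7 act mainly on stearic acid and yield oleic acid. FAT-2 turns oleic into linoleic acid, FAT-1 converts omega-6 into omega-3 fatty acids, and FAT-3 and FAT-4 complete the longer polyunsaturated chains. The intestine is the main site of fat storage in the worm, and it expresses most of these genes. A dauer does not feed and lives on stored fat.

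Each library held between 670302 and 12952656 estimated counts (median 8457220.5), and the 15 UV libraries were shallower (median 2987217) than the 39 others (median 8999443). Depth differed by dauer day as well. The D1 UV libraries held 7611701 to 10551063 counts, and the D4 libraries without UV 2449113 to 5978390. Dauer day and depth therefore go together in comparisons of D4 with other days. The shallowest were the 3 D4 0 h UV libraries, with 670302 to 856794 counts. Among the L3 libraries replicate 3 stood apart, with a mean chi-square per gene of 29.5 against replicate 2, where the median over pairs of replicates was 2.44, and results that turn on it are given with and without it. The 6 yolk protein genes (vit-1 to vit-6), markers of adult hermaphrodites, summed to 507 to 2003 CPM (counts scaled to library size) in the 3 D4 0 h libraries, to at most 4.83 in the D4 0 h UV libraries and to at most 252 in the other conditions, and replicate 3 of D4 0 h was the highest. Of 10 intestine markers 9 were in the table, and their sum was 2966 to 3170 CPM in D1 dauers and 431 to 452 in D30 dauers. The 6 dauer state markers summed to 25149 to 26262 CPM in D1 dauers, to 711 to 1023 in older dauers without UV and to 1.20 to 1.29 in L3 larvae.

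The levels below are CPM after TMM scaling over all 54 libraries. Differences are log2 changes fitted by edgeR, with their standard error, and a gene is called where the Benjamini-Hochberg adjusted p of edgeR's quasi-likelihood test over all genes tested is under 0.05. A slope is a fitted log2 change over the whole span, which is 29 days for dauer age and 24 h for exit.

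**Figure D1:**
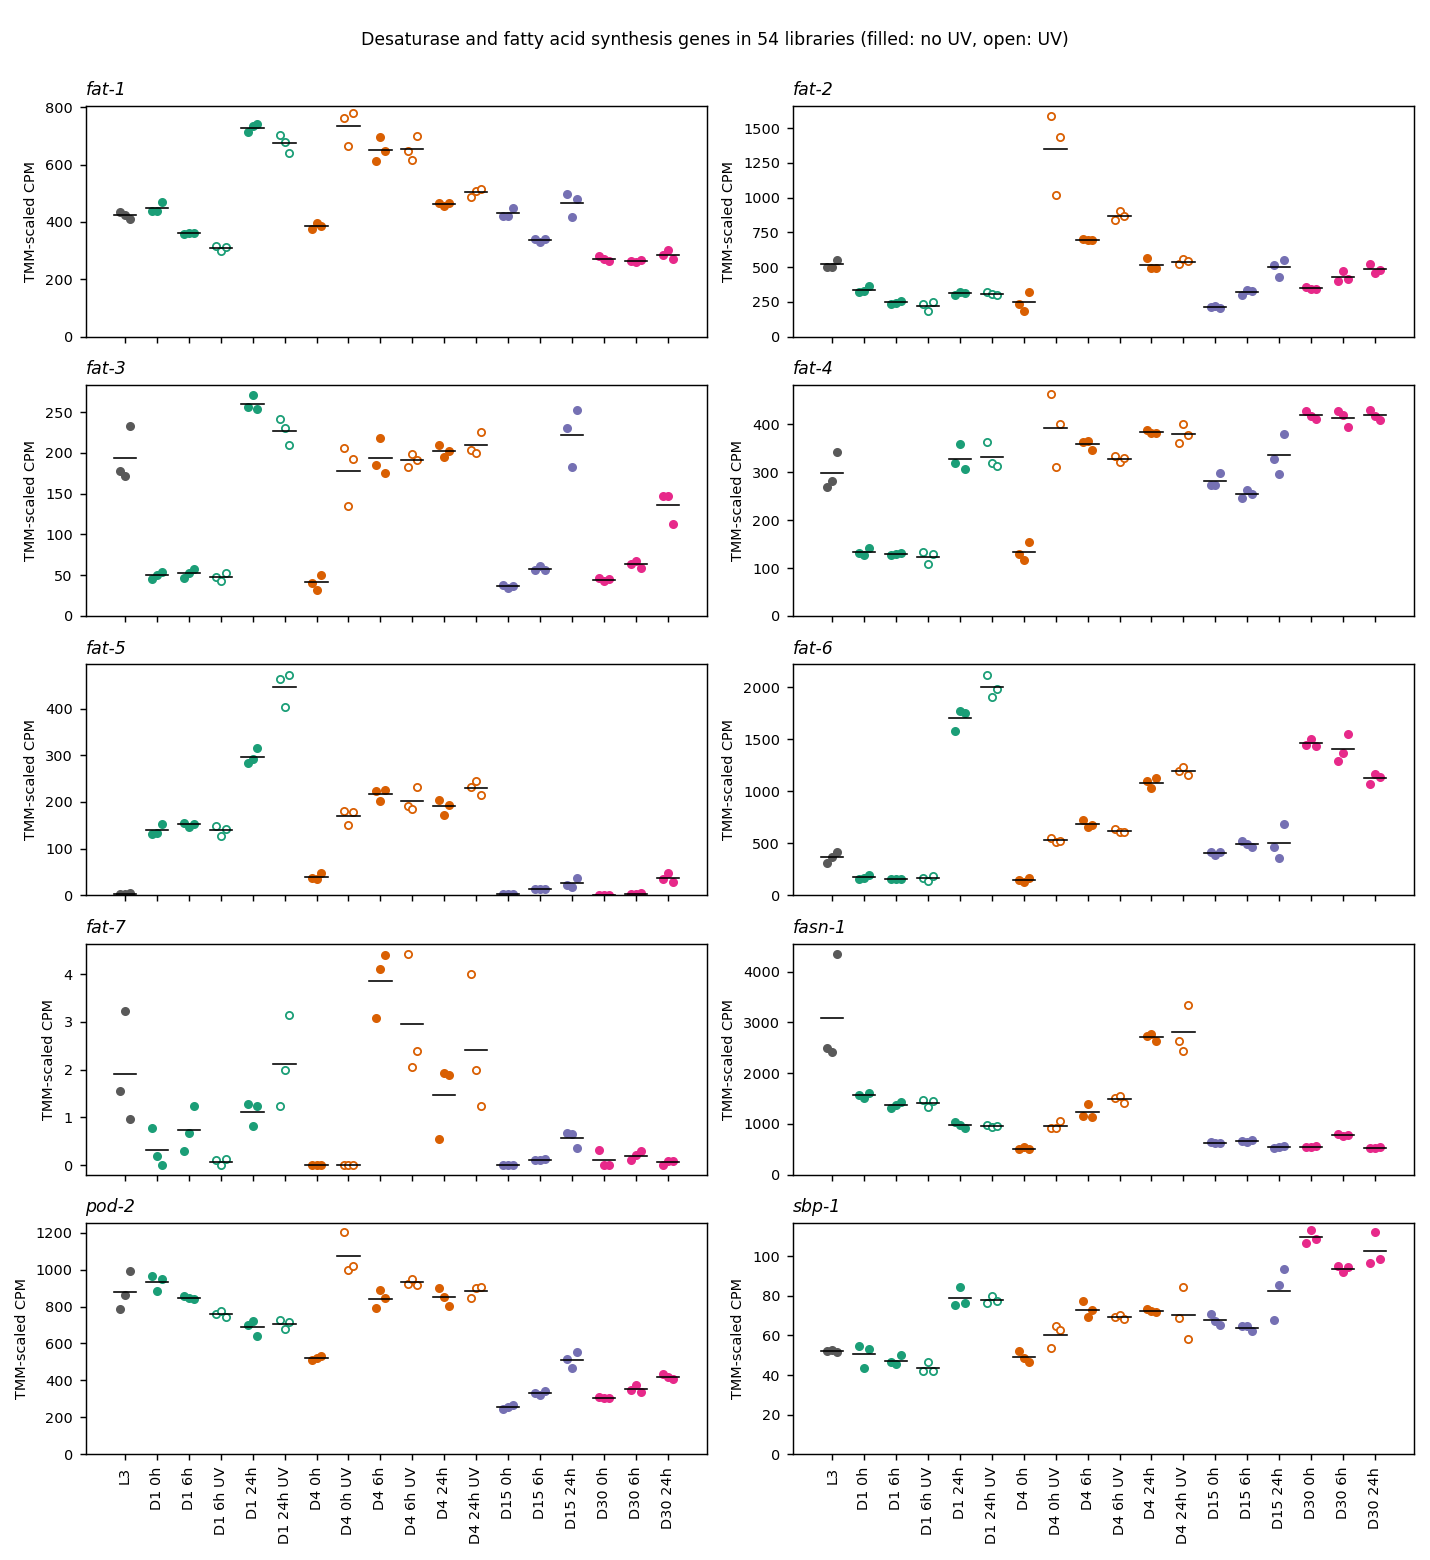
TMM-scaled CPM (vertical axis, linear) of the 10 genes in each of the 18 conditions (horizontal axis). Points are the 3 libraries, filled without UV and open with UV, and black lines are means. In D30 dauers fat-5 lay at 1.11 to 1.26 CPM and fat-6 at 1437 to 1503, and the axes of fat-7 and sbp-1 span far fewer counts than the others.

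The 4 genes of the polyunsaturated pathway lie on chromosome IV in 2 neighbouring pairs. In the WBcel235 annotation, fat-1 (13315644 to 13318811) and fat-2 (13323873 to 13326395) are 5061 bases apart with 1 gene between them, and fat-4 (9799429 to 9802226) ends 796 bases before fat-3 (9803023 to 9806119). All 4 are on the plus strand. The delta-9 genes are scattered: fat-6 is on chromosome IV (11913692 to 11915687, minus strand), fat-5 on V (17725004 to 17726818, plus strand) and fat-7 on V (7151353 to 7153146, minus strand). The other genes are fasn-1 on I (8975366 to 8986540, minus strand), pod-2 on II (1136785 to 1152705, plus strand) and sbp-1 on III (11428367 to 11442566, minus strand). The exons of fat-5, pod-2 and sbp-1 share 28, 139 and 48 bases with genes on the opposite strand, whose reads could be counted with them. FAT-6 and FAT-7 are close paralogs, and the estimated counts divide reads that fit both, so the few counts given to fat-7 are uncertain.

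Per kilobase of their longest transcript, fat-6 had the highest level of the 10 genes in 9 of the 13 conditions without UV, including every D15 and D30 condition. In D1 dauers fat-1 led at 317 CPM per kb, followed by fat-2 at 269.5, and fat-6 reached 148. In L3 larvae fat-2 led at 413, followed by fasn-1 at 365 and fat-6 at 315. The highest mean of fat-6, 1715 CPM per kb, was in D1 24 h UV animals.

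Across the 18 conditions the means of fat-5 differed by 371-fold between the highest (446 CPM, D1 24 h UV) and the lowest (1.20 CPM, D30 0 h). Those of fat-6 differed by 13.8-fold, and those of the other 7 genes with a count in every library by 2.52-fold (sbp-1) to 7.15-fold (fat-3). When the 18 condition means of a gene were put in order, 17 pairs of neighbours arose, and in most genes the libraries of most neighbours overlapped: 15 of 17 pairs for fat-3 and for fat-4, 14 for sbp-1, 12 for fat-2 and for fasn-1, and 11 for fat-1 and for fat-5. For fat-6 9 pairs overlapped and for pod-2 8, so neighbours in these orders were apart more often than in the other genes. For fat-7 all 17 pairs overlapped.

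The comparison of dauers of different age asks how the arrested animal changes with the length of arrest. The 3 delta-9 genes went different ways: fat-5 fell with every step, fat-6 rose after D4, and fat-7 was barely counted at any age. In D1 dauers fat-5 stood at 131, 133 and 153 CPM, and in D4 dauers at 36.2, 35.5 and 48.5. By D15 it was at 2.12, 2.82 and 2.66 CPM, from 17 to 23 counts per library, and by D30 at 1.26, 1.11 and 1.23, from 8 to 12 counts. The libraries of the 4 ages did not overlap. The fitted slope was -7.01 (SE 0.80, adjusted p = 1.83e-05), and the steps were -1.69 (SE 0.09) from D1 to D4, -4.07 (SE 0.17) from D4 to D15 and -1.001 (SE 0.34, adjusted p = 0.0164) from D15 to D30. The call of the last step was lost without D15 0 h replicate 2 or 3, where the adjusted p was 0.0554 to 0.0652, and in the fit of all 54 libraries (0.0721).

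For fat-6 the D1 libraries were at 159, 163 and 197 CPM and the D4 libraries at 143, 124 and 167. These overlapped, and the change was not called (-0.16, SE 0.09, adjusted p = 0.0930), though it was without D4 0 h replicate 3 and in 2 other fits that left out 1 library (adjusted p 0.00233 to 0.0483). The D15 libraries were at 417, 385 and 418 CPM and the D30 libraries at 1441, 1503 and 1437, so that each of these steps separated the libraries fully. From D4 to D15 the change was 1.41 (SE 0.08, adjusted p = 9.13e-13) and from D15 to D30 it was 1.90 (SE 0.07, adjusted p = 5.85e-16). The slope over 29 days was 3.33 (SE 0.18, adjusted p = 5.05e-08).

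In the 12 dauer libraries fat-7 had 10 counts in all: 6 and 1 in replicates 1 and 2 of D1, 3 in replicate 1 of D30 and 0 in every D4 and D15 library. It was below the count filter and was not tested. In D4 and D15 dauers 0 counts over the 3 libraries allow a level of up to 0.187 and 0.123 CPM, by a floor of 3 counts over the group, which covers counting error only.

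Taken as a ratio of counts within a library, fat-5 to fat-6 was at a mean log2 of -0.31 ± 0.05 (SD, n = 3) in D1 dauers, -1.85 ± 0.11 in D4, -7.30 ± 0.26 in D15 and -10.18 ± 0.12 in D30. A ratio within a library does not depend on scaling, and the highest and lowest of the 4 means lay 9.87 apart on the log2 scale. The sum of squares between the 4 ages was tested by an exact permutation test over 369600 arrangements of the 12 libraries (p = 6.49e-05, the smallest it can give, adjusted p = 0.000974 over 15 ratio tests). In terms of counts, fat-5 made up 44.6 ± 0.794% of the sum of the 3 delta-9 genes in D1 dauers and 0.0823 ± 0.00730% in D30 dauers. In D4 and D15 dauers its part was 21.6 ± 1.30% and 0.622 ± 0.110%. That sum, not corrected for length, was 312 ± 32.3 CPM in D1, 185 ± 28.1 in D4, 409 ± 18.5 in D15 and 1461 ± 36.7 in D30 dauers. It was highest at D30, where the part of fat-5 was lowest, but it was lowest at D4. The sum is the denominator of that part, so the 2 are not independent.

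**Figure D2:**
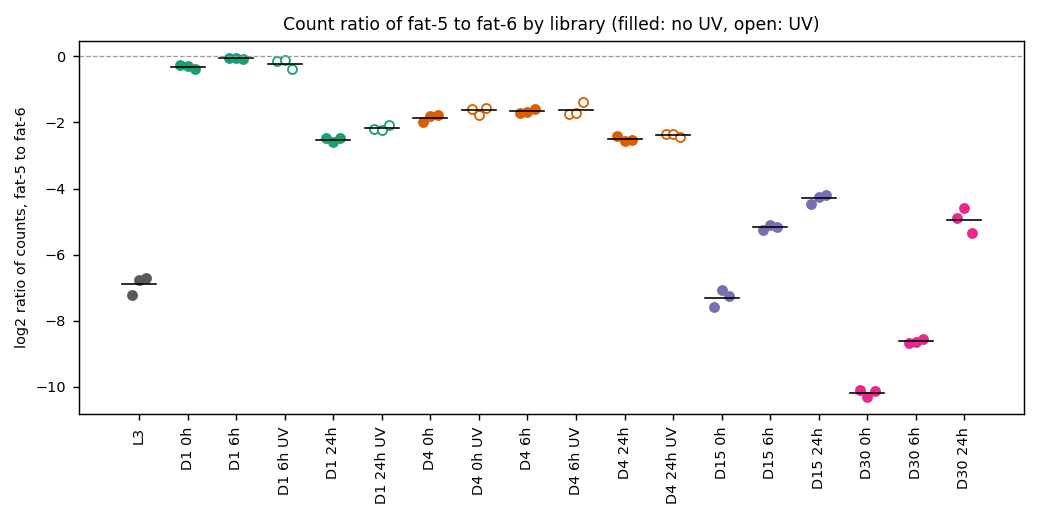
Log2 ratio of the counts of fat-5 to fat-6 (vertical axis, 0.5 added to each count) in each library of the 18 conditions (horizontal axis), filled without UV and open with UV, with black lines at the means. The means run from -0.06 in D1 animals at 6 h to -10.18 in D30 dauers, and L3 larvae lie at -6.90.

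Of the 9 genes tested for the slope over dauer age, 7 were called, 3 higher (fat-4, fat-6 and sbp-1) and 4 lower (fat-1, fat-5, fasn-1 and pod-2). Over all 13884 genes tested 56.7% were called (24.9% higher and 31.8% lower), and the median slope of the 9 was -0.05 beside -0.09 for all genes. Step by step, the change from D1 to D4 was called in 5 of the 9, all lower, where 70.1% of all genes were called, 36% higher and 34.1% lower. That from D4 to D15 was called in 8, 4 each way (66%, with 31.6% higher and 34.4% lower), and that from D15 to D30 in all 9, 6 higher and 3 lower (57.8%, with 28.9% and 28.8%). From D1 to D4 the count ran from 4 to 7 with 1 library left out, and the call of fat-1 was lost without D4 0 h replicate 1 (adjusted p = 0.0623). By library totals alone the calls of fat-1 (-0.02) and fat-2 (-0.25, adjusted p = 0.0547) were lost. There fat-4 was called higher (0.20, adjusted p = 0.0213). From D4 to D15 the calls of fat-2 and fat-3, both lower, were lost by DESeq2 (adjusted p = 0.145 and 0.0560). They were also lost with all 54 libraries in 1 fit (0.0888 and 0.197) and without D4 0 h replicate 3, where 6 were called. From D15 to D30 7 were called without D15 0 h replicate 3, and the call of fasn-1 was lost in 5 fits that left out 1 library.

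Among the polyunsaturated fatty acid genes, fat-4, the delta-5 desaturase, stood at 132, 127 and 143 CPM in D1 dauers and at 427, 418 and 411 in D30 dauers. The slope was 1.81 (SE 0.15, adjusted p = 1.11e-06), with no overlap between the youngest and oldest libraries. The omega-3 desaturase gene fat-1 fell from 438, 439.6 and 469 CPM to 281, 269 and 262 (slope -0.58, SE 0.14, adjusted p = 0.00350). Most of that came late, since the step from D15 to D30 was -0.61 (SE 0.04). For fat-2 and fat-3 the slopes were 0.20 (SE 0.24) and -0.05 (SE 0.17) and were not called. The lowest means of both were at D15, and from D15 to D30 both rose, fat-2 by 0.76 (SE 0.11, adjusted p = 1.88e-06) and fat-3 by 0.36 (SE 0.10, adjusted p = 0.00460).

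Both synthesis genes dropped early. In D1 dauers fasn-1 was at 1565, 1506 and 1613 CPM and in D4 dauers at 497, 539 and 506 (step -1.52, SE 0.04, adjusted p = 5.41e-19). All 9 libraries of D4, D15 and D30 dauers lay between 497 and 641 CPM. A straight line therefore described it poorly, with a slope of -1.02 (SE 0.38, adjusted p = 0.0350) whose call was lost in 9 of the 12 fits that left out 1 library (adjusted p 0.0551 to 0.0762) and with the replicate block (0.0627). The carboxylase gene pod-2 fell in 2 steps, from 964, 885 and 949.6 CPM in D1 to 510.3, 521 and 533 in D4 and to 246, 257 and 264 in D15. The steps were -0.75 (SE 0.04) and -1.10 (SE 0.04), and from D15 to D30 a rise of 0.32 (SE 0.04, adjusted p = 9.19e-07) followed.

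The regulator gene sbp-1 rose from 54.5, 43.6 and 53.3 CPM in D1 dauers to 107, 113 and 109 in D30 dauers (slope 1.21, SE 0.10, adjusted p = 1.07e-06), with no overlap. Like fat-4 and fat-6 it rose, where fasn-1 and pod-2 fell. Over the means of the 18 conditions its log2 level had a Pearson r of 0.86 with fat-6 and 0.84 with fat-4, and of -0.41 with fasn-1 and -0.50 with pod-2. Between fasn-1 and pod-2 the r was 0.74. These are descriptions over conditions that share a strain and in part a culture history.

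The sums of cell type markers moved with dauer age as well. Of the 9 intestine markers 8 fell and none rose (median slope -1.97), and of 8 body wall muscle markers 6 fell (median -2.82), while 4 of 6 neuron markers rose (median 0.78). So fat-5, fat-1, fasn-1 and pod-2 fell alongside the intestine markers, and fat-4, fat-6 and sbp-1 rose against them. The part of tissue composition in these slopes was not tested.

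Other lipid genes were read as 4 lists written by name, beside the 56.7% of all genes called over dauer age (24.9% higher and 31.8% lower). Of 9 regulators of the desaturases 3 had rising slopes and 1 a falling slope (median 0.19), and 2 were called in all by library totals alone. The nuclear receptor gene nhr-49, an activator of the delta-9 genes, rose by 0.87 (SE 0.13, adjusted p = 0.000183), and nhr-13 fell by 1.09 on the log2 scale (SE 0.29, adjusted p = 0.00641). The partner of nhr-49 in the activation of fat-6 and fat-7, nhr-80, had a slope of -0.03 (SE 0.23), and the Mediator subunit gene mdt-15 one of -0.15 (SE 0.27), neither called. Among 12 elongation genes, of which 10 were tested, 2 rose and 5 fell (median -0.93), led by elo-5 (-3.59, SE 0.34) and elo-6 (-4.34, SE 0.55), which make branched-chain fatty acids, while elo-1, the elongase of polyunsaturated chains, rose by 1.44 (SE 0.22). In the 8 genes of phosphatidylcholine and triglyceride synthesis 2 rose and 3 fell (median -0.57), with lpin-1 (lipin, 1.71, SE 0.10) and pmt-1 (1.93, SE 0.20) up and dgat-2, a diacylglycerol acyltransferase, down (-3.32, SE 0.41). Of 7 genes for acyl supply and electron donors 1 rose, the cytochrome b5 gene cytb-5.2 (1.58, SE 0.35), and 4 fell (median -0.57), among them mlcd-1 (malonyl-CoA decarboxylase, -1.06, SE 0.21).

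**Figure D3:**
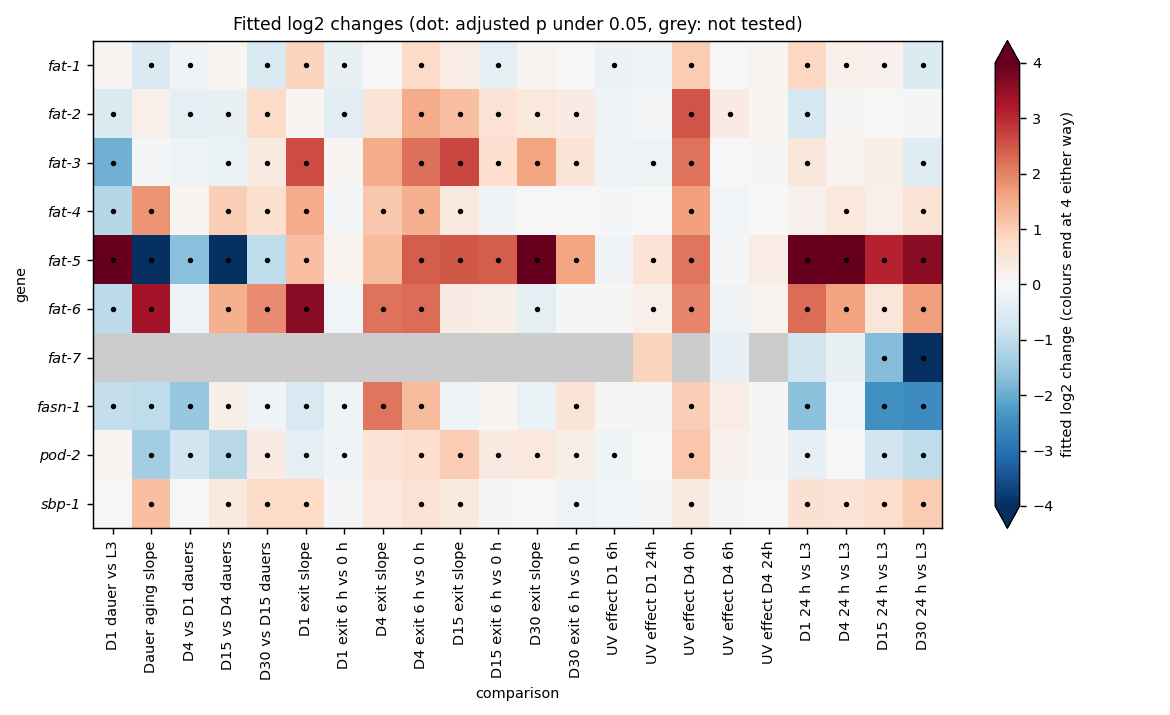
Fitted log2 change (colour, red higher and blue lower, ending at 4 either way) of each of the 10 genes (vertical axis) in each of 22 comparisons (horizontal axis). Dots mark an adjusted p under 0.05 and grey marks comparisons where fat-7 did not pass the count filter. All tested genes are higher at D4 6 h than at 0 h and at D4 0 h with UV than without.

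D1 dauers were compared with L3 larvae, the stage that a dauer replaces. Dauers were kept at a raised temperature, and the paper maintained its strains at a lower one to avoid dauer formation. Stage and growth temperature therefore cannot be told apart here. The largest difference was in fat-5, which was at 2.04, 3.33 and 3.98 CPM in L3 larvae against 131 to 153 in D1 dauers (log2 change 5.49, SE 0.17, adjusted p = 7.86e-08). The other delta-9 gene with counts went the opposite way, with fat-6 at 315, 365 and 421 CPM in L3 larvae and 159 to 197 in dauers (-1.06, SE 0.12, adjusted p = 8.39e-05). Neither pair of groups overlapped. As a result the log2 ratio of fat-5 to fat-6 of L3 larvae lay 6.59 below that of D1 dauers, and 3 libraries against 3 cannot give an exact p below 0.1, which is the p it had. Of fat-7 the L3 libraries held 13, 31 and 9 counts against 6, 1 and 0 in D1 dauers.

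Of 9 genes tested against L3 larvae 6 were called, 5 of them lower, where 75.6% of all genes were called and 36.9% were lower. Besides fat-5 all were lower in dauers: fat-3, the delta-6 desaturase, by 1.94 (SE 0.13), fat-4 by 1.13 (SE 0.10), fat-6, fat-2 by 0.59 (SE 0.07) and fasn-1 by 0.95 (SE 0.21), all on the log2 scale. In fasn-1 the L3 libraries disagreed, with 2492, 2412 and 4354 CPM, and without L3 replicate 3 the change was -0.66 (adjusted p = 1.11e-12). The median of the 9 changes was -0.59 beside 0.04 for all genes. The values rest on the scaling, because the L3 libraries had TMM factors of 0.742 to 0.771 and the others 0.906 to 1.15. By library totals alone the median of all genes moved up by 0.34, and fat-1 (0.46), pod-2 (0.46) and sbp-1 (0.33), which were not called after TMM scaling (0.11, 0.11 and -0.02), were then called higher in dauers. Relative to the median of all genes these 3 stood close to it under both scalings.

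Elongation and phosphatidylcholine genes were lower in D1 dauers as well. Of 10 elongation genes tested 8 were lower and 1 was higher (median -1.85), with let-767, a reductase of the elongation cycle, at -2.26 (SE 0.06), art-1 at -2.15 (SE 0.07) and elo-2 at -1.996 (SE 0.07). Of 8 phosphatidylcholine and triglyceride genes 6 were lower and none higher (median -0.62), led by pmt-2 (-3.41, SE 0.09) and sams-1 (-3.96, SE 0.11), whose products act in the methylation that makes phosphatidylcholine. Of 7 genes for acyl supply 3 were lower and 1 higher (median -0.19), and of 9 desaturase regulators 1 was higher and none lower (median -0.03). The regulator count was 0 by DESeq2, with the replicate block or without L3 replicate 2, 3 without L3 replicate 3, and 8 by library totals alone. Across all genes 75.6% were called. Of 9 intestine markers 2 were higher and 6 lower in D1 dauers (median -0.61), and of 8 body wall muscle markers 7 were lower (median -0.56), and their part in these results was not tested.

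Exit was followed at 6 and 24 h on each dauer day. The pattern depended on the day: from D1 most of the response came after 6 h, and from D4 all 9 genes tested were already higher at 6 h. From D15 and D30 fat-5 and fat-3 rose, while fat-6 changed little or fell. A test of whether the 4 exit slopes differ called 7 of 10 genes, where 64.2% of all 14975 genes were called, namely fat-1, fat-4, fat-5, fat-6, fasn-1, pod-2 and sbp-1.

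From D1 dauers, 8 of 9 genes had a called slope, 6 rising and 2 falling, against 61.9% of all genes (31.4% falling). The steepest was fat-6, which had stood at 159.9, 153 and 161 CPM at 6 h, overlapping the dauers, and reached 1576, 1769 and 1753 at 24 h (slope 3.61, SE 0.29, adjusted p = 9.71e-07). Next came fat-3, at 47.0, 53.0 and 57.6 CPM at 6 h and 256, 271 and 254 at 24 h (2.62, SE 0.17). Both groups at 24 h lay clear of every earlier D1 library. Over the same slope all 8 body wall muscle markers fell (median -1.71), and of 9 intestine markers 6 rose and 1 fell (median 0.42). Their part in the result was not tested.

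Lesser slopes from D1 were those of fat-4 (1.47, SE 0.13), fat-5 (1.21, SE 0.08), fat-1 (0.90, SE 0.16) and sbp-1 (0.79, SE 0.11), and fat-2 was flat (0.08, SE 0.15). The synthesis genes fell, fasn-1 by 0.60 (SE 0.05) and pod-2 by 0.36 (SE 0.05) on the log2 scale. At 6 h alone 4 of 9 genes were called, against 41.5% of all genes (20.8% higher and 20.7% lower), and all were lower: fat-2 (-0.45, SE 0.05), fat-1 (-0.31, SE 0.04), fasn-1 (-0.17, SE 0.05) and pod-2 (-0.13, SE 0.04). For the last of these the call was lost in 4 of the 9 fits that left out 1 library (adjusted p 0.0620 to 0.0821). With fat-6 rising more than fat-5, the log2 ratio of fat-5 to fat-6 went from -0.31 ± 0.05 through -0.06 ± 0.02 to -2.51 ± 0.08 (SD, n = 3, exact permutation test over 1680 arrangements, p = 0.00357, the smallest it can give, adjusted p = 0.00670).

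In D4 animals the change between 0 and 6 h took in the whole group. All 9 genes tested were called higher, beside 46.3% of all genes called in either direction and 23.5% called higher, and the median change was 1.42 beside -0.01. The rises were 2.41 for fat-5 (SE 0.11), 2.23 for fat-6 (SE 0.09), 2.20 for fat-3 (SE 0.13), 1.49 for fat-2 (SE 0.14) and 1.42 for fat-4 (SE 0.09). For fasn-1 the rise was 1.26 (SE 0.07), for fat-1 0.75 (SE 0.06), for pod-2 0.69 (SE 0.06) and for sbp-1 0.58 (SE 0.08). In each of the 9 the libraries of the 2 times did not overlap, and the share of all genes for which this held was not counted. The D4 0 h libraries are those with the high yolk gene counts, and the 6 yolk genes fell over the same step (median -4.64), while the intestine markers (5 of 9 called higher, 1 lower, median 0.54) and the body wall muscle markers (7 of 8 higher, 1 lower, median 0.80) mostly rose. Their part in the result was not tested.

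By 24 h the course had split. At 0, 6 and 24 h fat-6 had means of 145 ± 21.3, 687 ± 34.2 and 1083 ± 50.6 CPM (SD, n = 3), and fasn-1 of 514 ± 22.1, 1230.0 ± 144 and 2713 ± 70.3. Both kept rising, and their slopes were 2.17 (SE 0.57, adjusted p = 0.0110) and 2.15 (SE 0.24, adjusted p = 6.83e-05). Levels of fat-1, by contrast, were 386.2 ± 11.8, 652 ± 42.5 and 463 ± 7.68, and those of fat-2 were 246 ± 66.8, 697 ± 3.89 and 517 ± 43.8, so both were lower at 24 h than at 6 h with no overlap. A straight line through such a course has a large error, and of 9 slopes 3 were called, all rising (fat-6, fasn-1 and fat-4), against 43.6% of all genes (22.6% rising and 21% falling). The count rose to 5 without D4 6 h replicate 2, and the call of fat-4 (slope 1.08, adjusted p = 0.0452) was lost in 6 of the 9 fits that left out 1 library (adjusted p 0.0759 to 0.105).

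On exit from D4 counts of fat-7 appeared. The D4 6 h libraries held 9, 11 and 13 counts, from libraries with a mean of 3.87 ± 0.691 CPM, against 0 in all 3 at 0 h. Set over a floor of 3 counts for the group at 0 h, this is 20.7-fold. At 24 h the counts were 2, 9 and 8 (8.15-fold over the same floor). Counting error of the higher group is left out of both values, so they are not lower limits. By 6 h the mean of fat-6, a close paralog, rose from 145 to 687 CPM, and the part of reads that fit both genes was not tested. The mean at D4 6 h was the highest of fat-7 over the 18 conditions, and there it made up at most 0.484% of the counts of the 3 delta-9 genes. Its highest share in any library, 0.869%, was in L3 larvae.

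In D15 animals 6 of 9 slopes were called, all rising, against 42.3% of all genes (22.4% rising and 19.9% falling). They were those of fat-3 (2.67, SE 0.11), fat-5 (2.48, SE 0.55), fat-2 (1.20, SE 0.13), pod-2 (1.03, SE 0.08), sbp-1 (0.40, SE 0.12) and fat-4 (0.38, SE 0.12). The last 2 calls were lost in 4 and 5 of the 9 fits that left out 1 library. The falling slope of fasn-1 (-0.17, adjusted p = 0.0613) was called with RLE scaling (0.0345), by DESeq2 (0.0112) and in 5 of those 9 fits (0.0348 to 0.0476). Of 9 intestine markers 6 rose over the D15 slope (median 1.241) and of 8 body wall muscle markers 6 (median 0.61), and their part in the result was not tested. From its low of 2.12 to 2.82 CPM, fat-5 went to 13.7, 14.3 and 13.05 at 6 h and 21.1, 18.7 and 37.7 at 24 h. The libraries at 24 h differed from each other more than at other times, and so did those of fat-6 there, at 466, 359 and 685 CPM against 385 to 418 at 0 h, which overlap (slope 0.31, SE 0.19, adjusted p = 0.218). Without D15 24 h replicate 2 the slope of fat-6 was called (adjusted p = 0.0244). At 6 h, 5 of 9 genes were called against 53.6% of all genes (27% higher and 26.6% lower), with fat-1 lower (-0.36, SE 0.06) and fat-5, fat-3, fat-2 and pod-2 higher.

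The D30 animals had 5 of 9 slopes called, 4 rising and 1 falling, against 46.7% of all genes (24.6% and 22.2%). From 1.11 to 1.26 CPM in the dauers, fat-5 rose to 3.097, 3.37 and 4.13 at 6 h and to 35.97, 48.8 and 27.7 at 24 h, with no overlap between times (slope 4.72, SE 0.21, adjusted p = 3.20e-09). Meanwhile fat-6 went from 1437 to 1503 CPM down to 1071, 1169 and 1132 at 24 h (slope -0.39, SE 0.06, adjusted p = 0.000261). Here too the 2 genes moved against each other, and the log2 ratio of fat-5 to fat-6 rose from -10.18 ± 0.12 to -4.94 ± 0.39 (exact permutation test, p = 0.00357, the smallest it can give, adjusted p = 0.00670).

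Of the remaining genes fat-3 had a slope of 1.56 (SE 0.10), pod-2 of 0.43 (SE 0.06) and fat-2 of 0.42 (SE 0.09) in D30 animals, all called, and the slopes of fat-1 (0.09), fat-4 (0.01) and sbp-1 (-0.03) were not called. For fasn-1 the course was up and down, with means of 554 ± 13.2, 786 ± 16.1 and 528 ± 11.5 CPM at 0, 6 and 24 h. At 6 h 6 of 9 genes were called, 5 higher and 1 lower, against 25.6% of all genes (13.3% higher). Over the same 24 h all 9 intestine markers rose (median 1.81), and of 8 body wall muscle markers 4 rose and 2 fell (median 0.07).

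The companion lists are read against the shares of all genes called, which were 61.9% over the D1 slope, 46.3% at D4 6 h, 42.3% over the D15 slope and 46.7% over the D30 slope. From D1 dauers 5 of 10 elongation genes rose and 2 fell (median 0.37), with elo-1 at 1.76 (SE 0.08), let-767 at 0.76 (SE 0.07) and elo-4 at -4.70 (SE 0.13). In D4 animals at 6 h all 10 were higher (median 0.98), with elo-6 at 1.32 (SE 0.09), elo-3 at 0.99 (SE 0.10) and elo-1 at 0.87 (SE 0.09). In D30 animals 4 had rising slopes and 1 a falling one (median 0.28), a share near that of all genes, with elo-6 at 2.81 (SE 0.21), elo-3 at 1.20 (SE 0.11) and elo-5 at 1.44 (SE 0.32). On every day pmt-2, a phosphoethanolamine methyltransferase gene, rose along the slope, by 2.62 (SE 0.10) from D1, 2.45 (SE 0.61) from D4, 2.80 (SE 0.17) from D15 and 3.03 (SE 0.13) from D30. Of its list of 8 genes 4 rose and 2 fell from D1, and 5 were higher and 1 lower at D4 6 h. Over the D15 slope 6 rose and 0 fell. Over the D30 slope 4 rose and 0 fell, where 2 were called by DESeq2 or with the replicate block. Of 7 acyl supply genes 3 rose and 3 fell from D1, and 4 were higher and 3 lower at D4 6 h. Over the D15 slope 2 rose and 3 fell, and over the D30 slope 2 rose and 4 fell. Of 9 desaturase regulators 5 rose from D1 and 1 fell (median 0.20), with paqr-2, a membrane fluidity sensor, at 0.55 (SE 0.09), nhr-80 at 0.35 (SE 0.10), nhr-49 at 0.22 (SE 0.06) and nhr-13 at -0.86 (SE 0.14). At D4 6 h 6 rose (median 0.38), among them nhr-80 (0.57, SE 0.17) and nhr-49 (0.40, SE 0.09). Over the D15 slope none rose and 2 fell (median 0.12), and over the D30 slope 5 rose and 2 fell (median 0.28). The gene acdh-11, whose product restrains fat-7, fell over the D15 slope by 0.62 (SE 0.08) and over the D30 slope by 0.74 (SE 0.05) on the log2 scale.

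**Figure D4:**
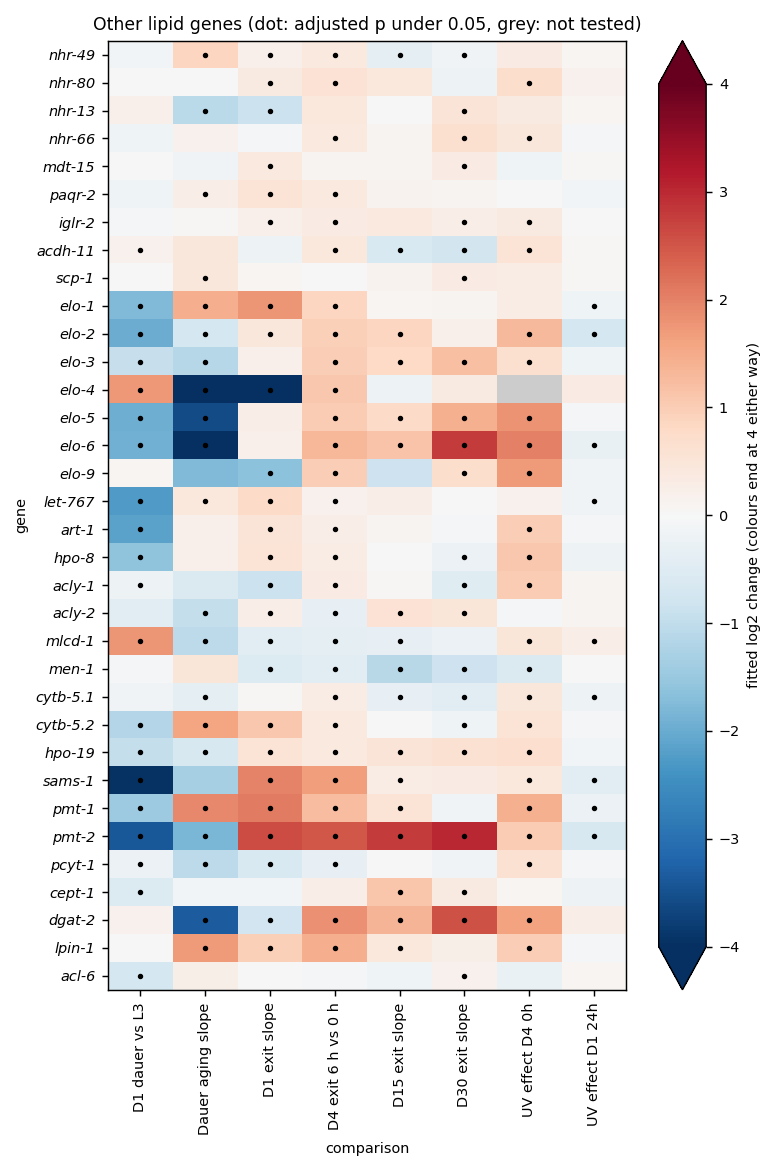
Fitted log2 change (colour, ending at 4 either way) of the tested genes of the 4 companion lists (vertical axis) in 8 comparisons (horizontal axis). Dots mark an adjusted p under 0.05. All 10 elongation genes are red at D4 6 h against 0 h, and pmt-2 is red in each exit column.

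UV was given on dauer day 1, and its effect was read at 5 times. At D4 0 h, with no exit, all 9 genes tested were called higher with UV, beside 32.5% of all genes called and 18.1% called higher, and the median change was 1.64 beside -0.04. At D4 6 and 24 h 1 of 10 and 0 of 9 of these genes were called, where 1.38% and 0.134% of all genes were. A test of whether the UV effect on D4 differs between the 3 times called 8 of 10 genes, all but fat-7 and sbp-1, against 22.8% of all 12780 genes.

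The largest change at D4 0 h was in fat-2, at 234.5, 185 and 317 CPM without UV and 1589.9, 1017 and 1432 with UV (2.53, SE 0.19, adjusted p = 3.99e-07). The delta-6 gene fat-3 was at 40.6, 32.4 and 50.1 CPM without and 206, 134 and 192 with UV (2.18, SE 0.17). Of the delta-9 genes fat-5 went from 35.5 to 48.5 CPM to 181, 151 and 178 (2.15, SE 0.14), and fat-6 from 124 to 167 CPM to 549, 513 and 523 (1.94, SE 0.10). No library of one group reached the other in any of these genes, and the share of all genes separated in this way was not counted.

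The remaining changes at D4 0 h were 1.64 for fat-4 (SE 0.14), 1.12 for pod-2 (SE 0.08), 1.01 for fat-1 (SE 0.07), 0.98 for fasn-1 (SE 0.07) and 0.37 for sbp-1 (SE 0.13). Only the call of sbp-1 (adjusted p = 0.0374) was lost in some fits: in 5 of the 6 that left out 1 library (adjusted p 0.0616 to 0.117) and in 4 planned settings. Without D4 0 h replicate 3, the library with most yolk gene counts, the other 8 were still called, and fat-2 was 2.74 and fat-6 2.04 higher. No counts of fat-7 were found in any of the 6 libraries. Because fat-5 and fat-6 rose alike, their log2 ratio differed by 0.22 between the groups (-1.64 ± 0.11 with UV, -1.85 ± 0.11 without, n = 3), and the exact permutation p was 0.1, the smallest possible.

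Those D4 0 h libraries without UV are the same that served as the start of the D4 exit course, so the 9 rises with UV and the 9 rises by 6 h share their controls and are not separate evidence. Side by side, the means with UV at 0 h and without UV at 6 h were 529 and 687 CPM for fat-6, 170.1 and 217 for fat-5, 178 and 193 for fat-3, 391 and 358 for fat-4, and 1346 and 697 for fat-2. In D1 dauers, which served in other comparisons, the libraries of fat-1, fat-2, fat-3, fat-4 and fat-6 lay below every D4 0 h UV library (means in D1 dauers of 338 CPM for fat-2 and 173 for fat-6) and so did those of pod-2, while those of fat-5 and sbp-1 overlapped. For fasn-1 the order was reversed, with 1506 to 1613 CPM in D1 dauers and 912 to 1049 in D4 0 h UV animals. Of 6 dauer state markers 4 were higher and 2 lower with UV, with sums of 1242 to 1653 CPM against 735 to 820, and all 6 yolk genes were lower, 3 of them at 0 in every UV library. Of 8 body wall muscle markers 6 were higher (median 0.58), and of 9 intestine markers 2 were higher and 3 lower (median -0.14), where the intestine marker sums were 1469 to 1550.4 with and 1522 to 1632 without. Their part in the result was not tested, nor was that of the depth of the UV libraries, which held 670302 to 856794 counts against 4069749 to 5978390.

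**Figure D5:**
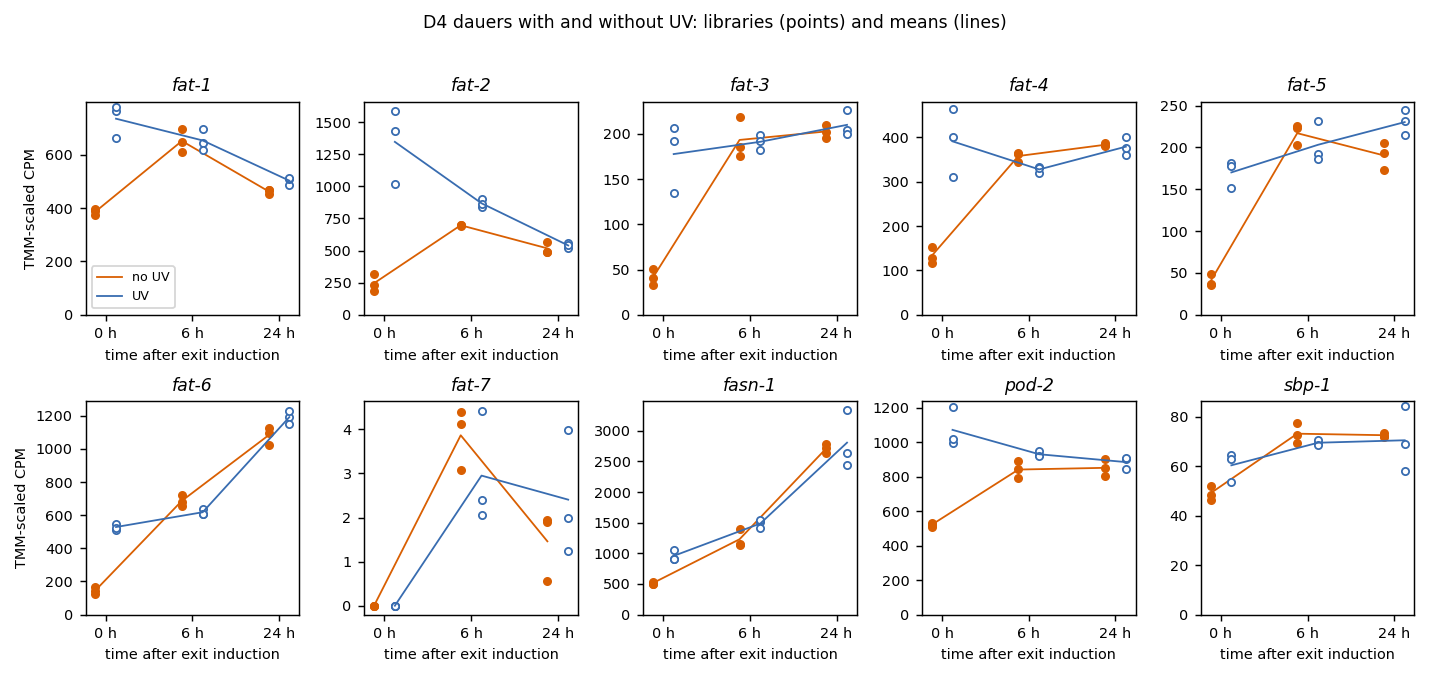
TMM-scaled CPM (vertical axes, linear) of the 10 genes in D4 animals at 0, 6 and 24 h after exit induction (horizontal axes, evenly spaced), without UV (orange, filled) and with UV (blue, open). Points are libraries and lines join the means. At 0 h fat-2 lies at 185 to 317 CPM without and 1017 to 1589.9 with UV, and by 24 h at 491 to 568 and 519 to 556.

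At D4 6 h with UV 1 of 10 genes was called, against 1.38% of all genes. It was fat-2, at 836, 905 and 864 CPM with UV and 702, 695 and 695 without (0.34, SE 0.06, adjusted p = 0.0129), and its call was lost in 4 of the 6 fits that left out 1 library (adjusted p 0.0505 to 0.0987). At 24 h none of 9 was called, against 0.134% of all genes. There 3 had an unadjusted p under 0.05, and DESeq2 called none. For fat-5 the change at 24 h was 0.28 (SE 0.07, adjusted p = 0.174) with the libraries of the 2 groups apart.

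In D1 animals UV was read at 6 and 24 h. At 6 h 2 of 9 genes were called, against 27.8% of all genes, fat-1 (-0.22, SE 0.04) and pod-2 (-0.16, SE 0.04), both lower. At 24 h 3 of 10 were called, against 11.7% of all genes (5.54% higher and 6.13% lower): fat-5 was at 463, 404 and 471 CPM with UV and 284, 291 and 316 without (0.56, SE 0.06, adjusted p = 0.000182), fat-6 was higher by 0.21 (SE 0.05) and fat-3 lower by 0.22 (SE 0.05). The calls of fat-6 and fat-3 were each lost in 2 of the 6 fits that left out 1 library, and that of fat-5 in none. Here the log2 ratio of fat-5 to fat-6 was -2.17 ± 0.08 with UV and -2.51 ± 0.08 without, with no overlap (exact permutation p = 0.1, the smallest possible, adjusted p = 0.225 over 18 tests).

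Among the companion lists at D4 0 h, beside 32.5% of all genes called, 7 of 9 elongation genes tested were higher with UV and none lower (median 1.08), led by elo-6 (2.002, SE 0.14), elo-5 (1.81, SE 0.16) and hpo-8 (1.08, SE 0.10). Of 8 phosphatidylcholine and triglyceride genes 6 were higher (median 0.80), led by lpin-1 (0.99, SE 0.08), pmt-1 (1.41, SE 0.13) and dgat-2 (1.62, SE 0.15). Of 7 acyl supply genes 5 were higher and 1 lower (median 0.50). Of 9 desaturase regulators 4 were higher (median 0.35), namely nhr-80 (0.71, SE 0.20), acdh-11 (0.55, SE 0.13), nhr-66 and iglr-2, and nhr-49 (0.32, SE 0.13) was not called. Without D4 0 h replicate 2 the regulator count was 2. In D1 animals at 24 h the elongation genes went down with UV where they were called, 4 of 10 (median -0.16), against 11.7% of all genes, led by elo-6 (-0.29, SE 0.06), elo-1 (-0.18, SE 0.04) and elo-2 (-0.71, SE 0.10). That count was 2 with the replicate block and without replicate 1 or 2 of either group, and 1 with all 54 libraries in 1 fit.

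Animals 24 h into exit were set against L3 larvae, which share no dauer stage. The exit animals had been kept at the raised temperature until exit, and this history cannot be told apart from the dauer stage. In all 4 such comparisons, which share the L3 libraries, fat-5 and fat-6 were higher than in L3 larvae. For fat-5 the changes were 6.58 (SE 0.29) from D1, 5.97 (SE 0.30) from D4, 3.07 (SE 0.32) from D15 and 3.61 (SE 0.31) from D30. For fat-6 they were 2.24 (SE 0.17), 1.62 (SE 0.16), 0.49 (SE 0.16) and 1.66 (SE 0.16), where the D15 call (adjusted p = 0.0126) was lost without D15 24 h replicate 3 or L3 replicate 1. The gene sbp-1 was higher as well, by 0.54 to 1.02.

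Of 10 genes tested 8 were called from D1 (69.5% of all genes), 5 from D4 (63.1%), 7 from D15 (75.7%) and 9 from D30 (80.4%). With L3 larvae at 2412 to 4354 CPM, the fatty acid synthase gene fasn-1 was at 2639 to 2779 in D4 animals (-0.12, SE 0.15, not called), at 913 to 1036 in D1 animals (-1.63, SE 0.16), and at 534 to 557 in D15 (-2.46, SE 0.16) and 521 to 541 in D30 animals (-2.50, SE 0.16). Without L3 replicate 3 the D4 change was 0.20 and was called (adjusted p = 0.00322). With 31 counts or fewer per library fat-7 was lower than in L3 larvae at D15 (-1.74, SE 0.50, adjusted p = 0.00507) and at D30 (-4.62, SE 0.72, adjusted p = 2.33e-05). By library totals alone the median of all genes moved up by 0.35 to 0.41 in these comparisons.

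The genes whose mean log2 levels over the 18 conditions were most like those of the delta-9 genes were looked up among 10845 genes. Nearest to fat-5 were fbxa-166 (Pearson r = 0.95), ugt-18 (0.94) and T19D12.4 (0.94). Nearest to fat-6 were nhr-117 (0.88), fat-4 (0.88) and pxd-1 (0.88), and nearest to fat-7 were T26C5.3 (0.89), F21C10.9 (0.87) and ugt-60 (0.87). With no count of fat-7 in 14 libraries and at most 31 in any, every r with fat-7 is uncertain. Like fat-5, T19D12.4 fell from 872 CPM in D1 dauers to 46.6 in D15 and 71.1 in D30 dauers. Between fat-5 and fat-6 themselves the r was -0.000266, and between fat-5 and fat-7 0.47.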

How the data were processed

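RNA-seq of whole daf-2(e1370) animals was analysed in 54 libraries of 18 conditions. The authors trimmed the reads with fastp, quantified them with Salmon against WormBase ParaSite transcripts with a genome decoy and a GC correction, and summed them to genes with tximport. The deposited values are estimated counts per gene, and they were used as counts after rounding to whole numbers. Salmon divides reads shared by similar transcripts by estimate. Of 19909 genes, 321 had no count in any library.

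Libraries were grouped by their labels. A gene needed 10 counts or more in 3 libraries of a fit to be tested. Tests were made with edgeR 4.0.16 (R 4.3.3, limma 3.58.1): TMM scaling, the quasi-likelihood F test without a replicate block, and Benjamini-Hochberg adjustment over all genes tested at a threshold of 0.05. Slopes used the day (over 29 days) or the hour (over 24 h) as a number, and the steps between ages or hours and the comparisons with UV or L3 used groups. Log2 ratios of the delta-9 desaturase counts, with 0.5 added, were compared by two-sided exact permutation tests over libraries. With 3 libraries against 3 the smallest p is 0.1. The smallest total, 670302 counts, limits precision most in the D4 0 h UV libraries. Where a group had 0 counts, a floor of 3 counts over the group was used, which covers counting error only. Levels per kilobase used the longest transcript of each gene. Positions came from the WBcel235 annotation (release 115), which matched 19897 genes by identifier and was not stated to be the annotation that the counts were made with. Ratios and figures were made with Python 3.11.15, numpy 2.4.6, scipy 1.17.1 and matplotlib 3.10.9.

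All 10 genes are named, with the 3 genes nearest to each of fat-5, fat-6 and fat-7 by Pearson r of log2 CPM over the 18 condition means among genes with a mean of at least 5 CPM. From each related list up to 3 genes with the smallest p are named, plus nhr-49, nhr-80, nhr-13, mdt-15, paqr-2 and acdh-11. The genes and lists were chosen with earlier results of these data known. Alternatives were RLE scaling, no count filter, DESeq2 1.42.0, the replicate number as a block, leaving out each library, all 54 libraries in 1 fit, log2 of the day, another added count of 2 and, added after seeing the data, library totals without TMM. The tests were tried on simulated data. Of simulated 2-fold changes 27% were called by the dauer age slope and 44.8% by the D4 exit slope. Of 4-fold changes these slopes called 62.5% and 85.9%. The group comparisons tried called 65.7% to 84.6% of 2-fold changes. A slope that was not called therefore does not show that a gene did not change. Replicate numbers did not pair the libraries.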

Additional observations from a re-analysis of the deposited data

Results flagged for a closer look

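The slope of exit differed between the 4 dauer days, by the edgeR test of the interaction of day and hour, for fasn-1 (adjusted p = 2.07e-11), fat-6 (9.93e-08), pod-2 (1.67e-07), fat-5 (0.000445), fat-4 (0.000605), sbp-1 (0.00395) and fat-1 (0.0166). For fat-1 the call was lost without D1 24 h replicate 3 (adjusted p = 0.0550).

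The effect of UV on D4 animals differed between 0, 6 and 24 h, by the edgeR test of the interaction of UV and hour, for fat-6 (adjusted p = 4.83e-10), fat-5 (3.50e-08), fat-2 (5.34e-08), fat-4 (6.53e-08), fat-3 (1.18e-07), pod-2 (1.98e-07), fat-1 (5.89e-07) and fasn-1 (0.000185). All 8 were called higher with UV at 0 h, and of these fat-2 alone was called at 6 h.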

How the results depend on the processing

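Of 224 fitted values of the 10 genes 140 were called, of which 18 lost their call with 1 library left out, 16 under another planned setting and 21 under either. Counts of called genes moved by more than 1.5 times in 5 comparisons. The D1 exit count at 6 h (4) was 2 with all 54 libraries in 1 fit. The D4 exit slope count (3) was 5 by DESeq2 and 2 to 5 with 1 library left out. The UV count at D1 24 h (3) was 1 with all 54 libraries. The UV count at D4 6 h (1) was 2 without the count filter, 0 with all 54 libraries and 0 to 2 with 1 library left out, being 0 without D4 6 h replicate 1 or 3 or D4 6 h UV replicate 2 and 2 without D4 6 h UV replicate 3. The D4 24 h count against L3 (5) was 8 by library totals, and there the share of all calls that were higher went from 48.96% to 71.9%.

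By library totals without TMM, chosen after seeing the data, the median of all genes moved by -0.23 to 0.41, by over 0.1 in 10 of 22 comparisons, and the share of higher calls by over 10 points in 13, where RLE scaling did so in 0. These values changed sign: sbp-1 in D1 against L3 (0.33), fat-1 (-0.14) and fasn-1 (-0.000829) in D15 against D4, pod-2 at D1 24 h against L3 (0.082), and fat-2 at D15 and D30 24 h against L3 (0.35 and 0.35). With 1 library left out, fasn-1 at D4 24 h against L3 (-0.12) ranged from -0.28 to 0.20, the latter without L3 replicate 3. A further 76 changes of sign were of values not called in either fit. Over all genes, the UV count at D1 24 h (1530) was 1010 by DESeq2 and 930 to 1286 with 1 library left out. That at D4 6 h (150) was 353 without the filter, 316 with all libraries and 45 to 312, and that at D4 24 h (16) was 66, 37 and 6 to 27, with 32 by DESeq2. The causes were not tested.

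Replicate numbers did not pair the libraries: of 153 pairs of conditions 0 had all 3 correlations of deviations over 0.1 (median r 0.000726). With the replicate block the UV count at D4 6 h was 2, with fasn-1 added (adjusted p = 0.0483), fat-5 was called at D1 6 h (0.0490), and calls were lost for fasn-1 over dauer age (0.0627), fat-4 on D4 exit (0.0928), sbp-1 on D15 exit (0.0581), fat-6 with UV at D1 24 h (0.0717) and sbp-1 with UV at D4 0 h (0.0691). Depth limits fat-7 most, with at most 31 counts per library.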
